A study of Mus musculus with 4 samples.

Results

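The core kinases of the Hippo pathway and the upstream inhibitors of its effector YAP were followed in basal cells sorted from mouse mammary gland. The set was named by symbol: the kinases Lats1, Lats2, Stk3 and Stk4, their scaffold and cofactors Sav1, Mob1a and Mob1b, and the upstream inhibitors Nf2, Wwc1 and Ptpn14. Of these 10 genes, 8 had a row among the 34615 gene rows of the count files, and Nf2 and Wwc1 were not analysed here. All 8 passed the filter on low counts and were tested.

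In the Hippo pathway, the MST kinases, encoded by Stk3 (MST2) and Stk4 (MST1), work with the scaffold SAV1 to phosphorylate the LATS kinases and their MOB1 cofactors. LATS1 and LATS2 then phosphorylate YAP and its relative TAZ, which keeps them out of the nucleus and away from the TEAD transcription factors, while PTPN14 binds YAP and restrains it by a partly separate route. Lats2 and Ptpn14 are themselves known YAP target genes, a negative feedback, and in the mammary gland YAP and TAZ are known for their role in basal and stem cell properties.

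RNA sequencing was done on 4 libraries, 2 labelled wild-type (WT, genotype WTfl/flmTmGfl/fl cre+) and 2 labelled KO (genotype miR205fl/flmTmGfl/fl cre+), both on a homozygous Rosa mTmG reporter that turns from red to green fluorescence after Cre acts. Mammary cells of both genotypes received a Cre adenovirus (Ad-cre), so the WT controls carry Cre as well, and were transplanted into SCID-Beige mice, an immunodeficient strain, at 3 weeks of age. Outgrowths were collected after 8 weeks and pooled (40 outgrowths), and GFP+ CD24+ CD49f-high basal cells were sorted. No cell-type-specific promoter for Cre is named in the labels, the sort relies on the reporter to mark recombined cells, and nothing states that replicates came from separate pools, so p-values measure only how far these libraries spread, and that spread may be technical. The comparison addressed how basal cells without miR-205 differ from controls, with YAP signalling named in the series title.

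Gene counts ran from 47953972 to 60030932 per library, and a gene with 0 counts could still stand at up to 0.04997 to 0.06256 counts-per-million (CPM). Mir205 itself had 0 counts in all 4 libraries, so the deleted gene could not be used to check the labels. KO replicate 2 stood apart from the rest, with 12679 genes detected against 18027 to 18897 in the other libraries, so fold changes are also given without it. Basal markers were abundant in every library: the summed level of 10 markers, among them Krt5, Trp63 and Acta2, was 10970 and 10550 CPM in the WT libraries against 12890 and 10840 CPM in the KO libraries, with none at 0. In KO replicate 2, Cnn1 (121.9 against 213.5 to 272.6 CPM), Mylk (408.5 against 581.7 to 649.8 CPM), Myh11, Acta2, Col17a1 and Dll1 were at their lowest. Oxtr (332.7 against 104.1 to 165.4 CPM), Trp63 and Itga6 were at their highest. The median log2 ratio of KO replicate 2 to the WT mean was -0.22 over the basal markers. The 12 luminal markers summed to 1107 and 1582 CPM in the WT libraries against 1189 and 1896 CPM in the KO libraries, where Elf5 was at 0 in KO replicate 2. In that library Foxa1 was at 89.1 CPM against 6.54 to 13.1 CPM in the others, and Prlr at 210.1 against 21.8 to 100.6 CPM. Kit went the other way, at 1.44 against 6.9 to 27.6 CPM. Without KO replicate 2, 1 luminal marker was positive and 11 were negative (median log2 fold change -0.36, beside -0.03 over all genes tested). Sums were 586.4 to 919.4 CPM for 9 fibroblast markers, 129.7 to 271.1 CPM for 9 endothelial markers and 71.64 to 319.1 CPM for 10 immune markers. The highest fibroblast, luminal and immune sums were all in KO replicate 2, but a few abundant genes made up much of the immune and fibroblast sums, and other markers were low there. Cd74 alone was at 289.2 CPM there, against 56.1 to 136.4 CPM in the other libraries, while Laptm5 was at 0.0479 against 4.18 to 5.93 CPM and Adgre1 at 0. Among the fibroblast markers, Fbn1, Dcn and Col6a1 were highest in KO replicate 2, at 487.0, 221.3 and 131.9 CPM. Pdgfra (24.45 against 7.91 to 11.62 CPM) and Col1a2 (30.94 against 20.95 to 29.37 CPM) were also highest there. By contrast Pdgfrb was at 0 and Thy1 at 1.65 against 6.42 to 7.23 CPM. The median log2 ratio of KO replicate 2 to the WT mean was -1.52 over the 8 immune markers tested, 0.09 over the fibroblast and 0.28 over the luminal markers, and the part of these markers in the results below was not tested. In sorted bulk cells, fewer cells of a type and less RNA per cell cannot be told apart.

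MicroRNA miR-205-5p, whose loss defines the KO group, is printed with the seed (bases 2 to 8) in capitals, beside the stretches of the pathway transcripts that could pair with the seed. RefSeq (GRCm38.p6) places it on the minus strand of chromosome 1, from 193507503 to 193507524.
miR-205-5p: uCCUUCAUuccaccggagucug
Seed matches were searched in the longest 3' UTR that GENCODE M21 annotates for each gene, on the transcript strand, as ATGAAGG (pairing with the whole seed), as TGAAGGA (pairing with all but its last base and followed by an A) or as both at once, ATGAAGGA. A match was found in 4 of the 8 genes, once each and always as TGAAGGA, shown in capitals with flanking bases on the transcript strand.
Stk3: accacaagaatTGAAGGAattctactttt
Stk4: ctctttcctctTGAAGGAaaatgctttgg
Sav1: aggaacaccttTGAAGGAgaaagatgaag
Ptpn14: cagtttggattTGAAGGAggggaaaatta
These matches begin at base 51 of 1166 in the Stk3 UTR, base 2165 of 3693 in Stk4, base 539 of 1128 in Sav1 and base 2349 of 6640 in Ptpn14. Lats1, Lats2, Mob1a and Mob1b held no match in UTRs of 1626 to 8048 bases. Among 12635 tested genes with an annotated 3' UTR, 21.9% held a match, and among the 7131 of them with at least 1000 bases of UTR, as all 8 genes here have, 33.1% did. A match describes the letters only and is not evidence of binding.

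None of the 8 genes passed the test of KO against WT over all genes, by the edgeR quasi-likelihood test at a Benjamini-Hochberg adjusted p under 0.05. That test called 0 of 15364 genes (0.0%), with 147 genes (0.957%) at an unadjusted p under 0.05. DESeq2 called 4 genes (0.026%) and limma voom 0, none of them from this set. With KO replicate 1 left out, so that KO replicate 2 was the lone KO library, edgeR called 34.9% of all genes and 2 of these 8, Stk3 and Ptpn14. Without KO replicate 2 it called 0 of 16904 genes (0.0%). Ptpn14 was the 1 gene of the 8 with an unadjusted p under 0.05. Among the 8 genes, 3 had a positive fold change and 5 a negative one, at a median log2 fold change of -0.05, beside -0.14 over all genes tested. All 8 had a mean of 5 CPM or more, and over the 8841 tested genes of that abundance the median was 0.05, above that of the set. Without KO replicate 2, 6 of the 8 genes were positive and 2 negative, with a median of 0.12, beside -0.03 over all genes tested with 4 libraries.

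**Figure D1:**
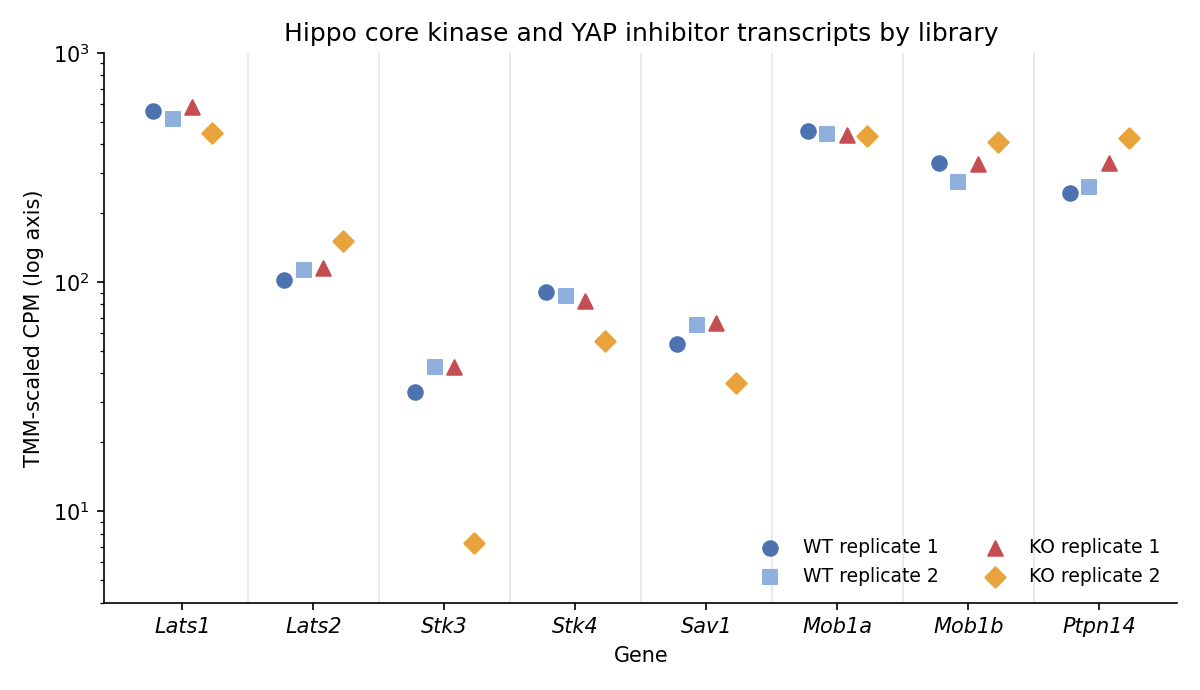
Transcript level of each gene in each of the 4 libraries, in CPM scaled by the trimmed mean of M-values (TMM), on a log axis with 1 symbol per library. The WT libraries and KO replicate 1 lie close together for most genes, while Stk3 is at 7.26 CPM in KO replicate 2 and Ptpn14 lies higher in both KO libraries.

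Ptpn14 (ENSMUSG00000026604, chromosome 1 from 189728268 to 189876695, plus strand, GRCm38 as for the genes below) encodes a protein tyrosine phosphatase that holds YAP in the cytoplasm. It was at 244.5 and 261.5 CPM in the WT libraries, against 329.7 and 425.4 CPM in the KO libraries. Both KO libraries lay above both WT libraries, KO replicate 1 at 130% and KO replicate 2 at 168% of the WT mean. The fitted log2 fold change was 0.58 ± 0.22 (SE, 2 against 2 libraries), with an unadjusted p of 0.0475 and an adjusted p of 0.999 (edgeR). Without KO replicate 2 it was 0.39 ± 0.16 with an unadjusted p of 0.0427 and an adjusted p of 0.9998 (edgeR), in a fit where 2.8% of all genes had an unadjusted p under 0.05. Among 1489 tested genes with a WT mean of 100 to 300 CPM, the median absolute distance from the WT mean was 0.137 (log2) in KO replicate 1 but 0.455 in KO replicate 2. For Ptpn14 these distances were 0.382 and 0.749, both upward.

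Promoters are shown for Ptpn14 and Lats2, the genes of the set described above as known YAP targets. Each sequence runs from 250 bases before to 50 bases after the RefSeq start (GRCm38.p6), with GGAATG, the core of the TEAD motif, or its reverse complement CATTCC in capitals.
Ptpn14, chr1:189728018-189728317, plus strand: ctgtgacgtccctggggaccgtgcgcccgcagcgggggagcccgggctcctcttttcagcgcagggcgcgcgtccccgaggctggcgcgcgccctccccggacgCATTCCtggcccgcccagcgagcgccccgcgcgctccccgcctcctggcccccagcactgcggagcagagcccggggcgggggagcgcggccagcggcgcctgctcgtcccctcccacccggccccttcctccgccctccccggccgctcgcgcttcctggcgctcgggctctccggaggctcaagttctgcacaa
Lats2, chr14:57746074-57746373, minus strand: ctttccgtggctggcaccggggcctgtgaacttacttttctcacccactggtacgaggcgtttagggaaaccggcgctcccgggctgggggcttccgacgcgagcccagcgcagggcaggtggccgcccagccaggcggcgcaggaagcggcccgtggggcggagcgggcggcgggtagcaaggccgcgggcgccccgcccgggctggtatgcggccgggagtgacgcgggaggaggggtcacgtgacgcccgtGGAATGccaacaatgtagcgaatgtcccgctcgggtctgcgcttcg
The Ptpn14 match begins 146 bases before the start and the Lats2 match 4 bases after it. Of the 7 genes with a RefSeq promoter, 4 held a match on either strand: these 2, Sav1 (106 bases before the start) and Mob1a (209 bases before). A second RefSeq start of Lats2 held none, nor did Lats1, Stk4 and Mob1b. Among all 32851 RefSeq promoters of this length, 14.7% held a match. That share is per promoter, while the count above is per gene, with both starts of Lats2 searched. The median GC content of all these promoters was 52.7%, beside 58.3% to 78.3% in the promoters of the set with a match. Among the genes with a match, both KO libraries lay above both WT libraries for Ptpn14 and Lats2, below them for Mob1a, and overlapped WT for Sav1. As with the seed matches, a match describes the letters and not a bound site. Nothing is drawn from it about TEAD binding, and its relation to transcript level or YAP activity was not tested.

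The MST kinases and their scaffold were among the least abundant genes of the set per base of gene model, and each had its lowest value in KO replicate 2. Stk3 (ENSMUSG00000022329, chromosome 15 from 34875496 to 35178921, minus strand) was at 33.34 and 42.66 CPM in the WT libraries, at 42.85 CPM in KO replicate 1 but at 7.26 CPM in KO replicate 2. That last value rests on 303 reads, the smallest count of any gene of the set, with an exact Poisson 95% interval of 6.47 to 8.13 CPM that covers counting error only. The KO libraries lay on either side of both WT libraries, so the genotypes overlapped. The fitted log2 fold change was -0.60 ± 0.87 with an adjusted p of 0.999 (edgeR), and without KO replicate 2 it was 0.18 ± 0.31.

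Stk4 (ENSMUSG00000018209, chromosome 2 from 164070322 to 164155524, plus strand), which encodes the other MST kinase, was at 90.79 and 87.47 CPM in the WT libraries against 82.91 and 55.3 CPM in the KO libraries. Both KO libraries lay below both WT libraries, KO replicate 1 by a margin only a little wider than the distance within the WT pair. Its log2 fold change was -0.37 ± 0.32, and -0.10 ± 0.22 without KO replicate 2. Sav1 (ENSMUSG00000021067, chromosome 12 from 69965012 to 69987002, minus strand), the WW-domain scaffold that holds the MST kinases to LATS, was at 53.86 and 64.78 CPM in the WT libraries, at 66.44 CPM in KO replicate 1 but at 36.24 CPM in KO replicate 2. The KO libraries were the highest and the lowest of the 4, so the genotypes overlapped. Its log2 fold change was -0.21 ± 0.42, and 0.17 ± 0.26 without KO replicate 2.

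Values far from WT, low and high, were common in KO replicate 2 at this abundance. Of 2522 tested genes with a WT mean of 30 to 100 CPM, the range that holds Stk3, Stk4 and Sav1, 18.4% stood below 50% of the WT mean in KO replicate 2 and 4.8% below 20% of it. On the high side 16.2% stood above 2 times the WT mean, and the median log2 ratio of these genes to WT was 0.08. In KO replicate 1, 0.634% stood below 50% and 0.0397% above 2 times. Stk3 was at 19.1% of its WT mean in KO replicate 2, Stk4 at 62.0% and Sav1 at 61.1%. In KO replicate 1 they were at 113%, 93.0% and 112%.

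The LATS kinases lay on opposite sides of WT in KO replicate 2, and at 108% (Lats1) and 107% (Lats2) of the WT mean in KO replicate 1. Lats1 (ENSMUSG00000040021, chromosome 10 from 7681214 to 7716460, plus strand) was at 558.5 and 515.8 CPM in the WT libraries, at 580.4 CPM in KO replicate 1 but at 449.7 CPM in KO replicate 2. The KO libraries again took the highest and lowest places, and the log2 fold change was -0.06 ± 0.21, or 0.12 ± 0.14 without KO replicate 2. Lats2 (ENSMUSG00000021959, chromosome 14 from 57689662 to 57758388, minus strand) measured 101.9 and 113.2 CPM in the WT libraries against 114.8 and 150.7 CPM in the KO libraries. Both KO values were above both WT values, KO replicate 1 by a smaller step than the one between the WT libraries. Its log2 fold change was 0.30 ± 0.27, and 0.10 ± 0.21 without KO replicate 2.

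The MOB1 cofactors, small proteins that bind and activate LATS, included the gene of the set whose 4 libraries lay closest together. Mob1a (ENSMUSG00000043131, chromosome 6 from 83326016 to 83343776, plus strand) measured 455.2 and 444.3 CPM in the WT libraries against 437.3 and 435.2 CPM in the KO libraries. Both KO libraries were below both WT libraries, yet they stood at 97.2% and 96.8% of the WT mean, and the log2 fold change was -0.04 ± 0.18 with and -0.04 ± 0.14 without KO replicate 2. Mob1b (ENSMUSG00000006262, chromosome 5 from 88720855 to 88764220, plus strand) measured 330.5 and 272.3 CPM in the WT libraries against 326.7 and 411.0 CPM in the KO libraries. KO replicate 1 lay between the WT libraries and KO replicate 2 above them, with a log2 fold change of 0.29 ± 0.23, or 0.12 ± 0.18 without KO replicate 2. The paralog pairs had few identical stretches in which reads could be confused: no window of 50 bases in the longest transcript of Mob1a occurred in Mob1b, and likewise for Stk3 with Stk4 and Lats1 with Lats2, with longest shared runs of 13 to 23 bases.

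**Figure D2:**
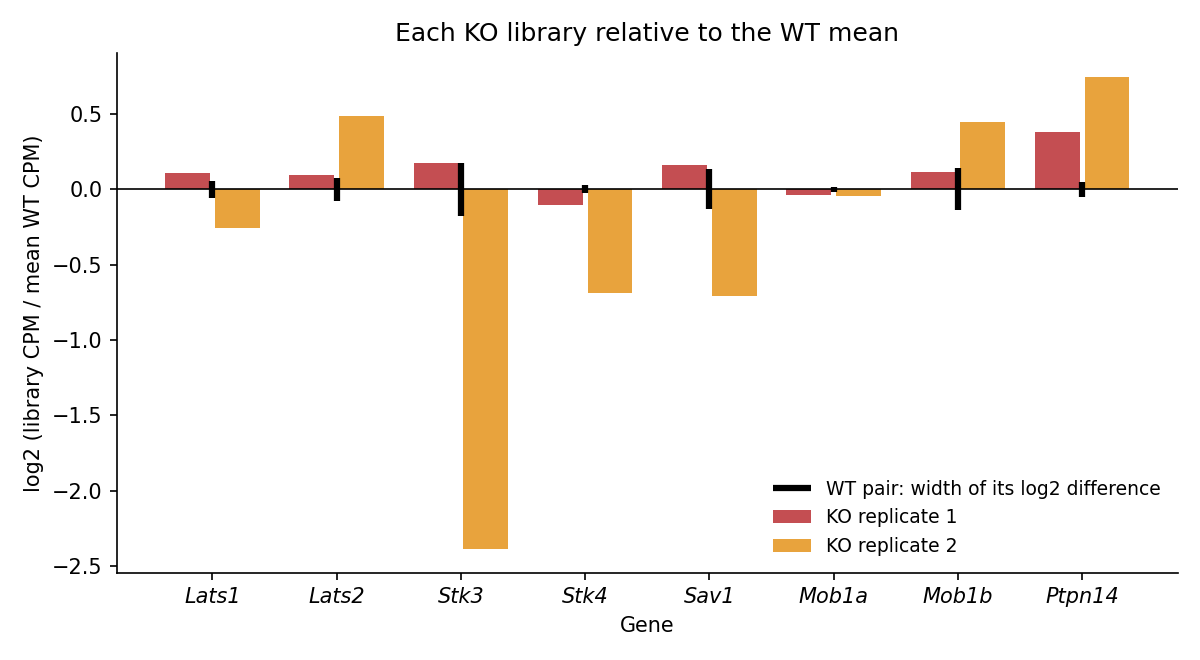
Bars give the log2 ratio of each KO library to the mean of the WT libraries, and the black line the log2 difference within the WT pair, centred on 0. KO replicate 1 stays within 93.0% and 130% of WT, while KO replicate 2 runs from 19.1% for Stk3 to 168% for Ptpn14.

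Set against WT as a whole, KO replicate 1 was near WT and KO replicate 2 was not. The median absolute distance of the 8 genes from the WT mean was 0.114 on the log2 scale in KO replicate 1 and 0.588 in KO replicate 2. Between the WT libraries themselves the median was 0.134, a distance between single libraries and not from a mean, so it is not a like measure. KO replicate 1 lay within the WT range for 1 of the 8 genes. Each of the 8 genes had a higher mean CPM than at least 69.6% of the genes tested. Over all tested genes, most of them less abundant, KO replicate 1 lay at 0.32 and KO replicate 2 at 1.41. The KO and WT libraries did not overlap for 4 of the 8 genes. For all genes tested this share was 32.4%, made up of 13.2% with both KO libraries above WT (2 of the 8 genes, Lats2 and Ptpn14) and 19.2% with both below (2 of the 8, Stk4 and Mob1a).

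**Figure D3:**
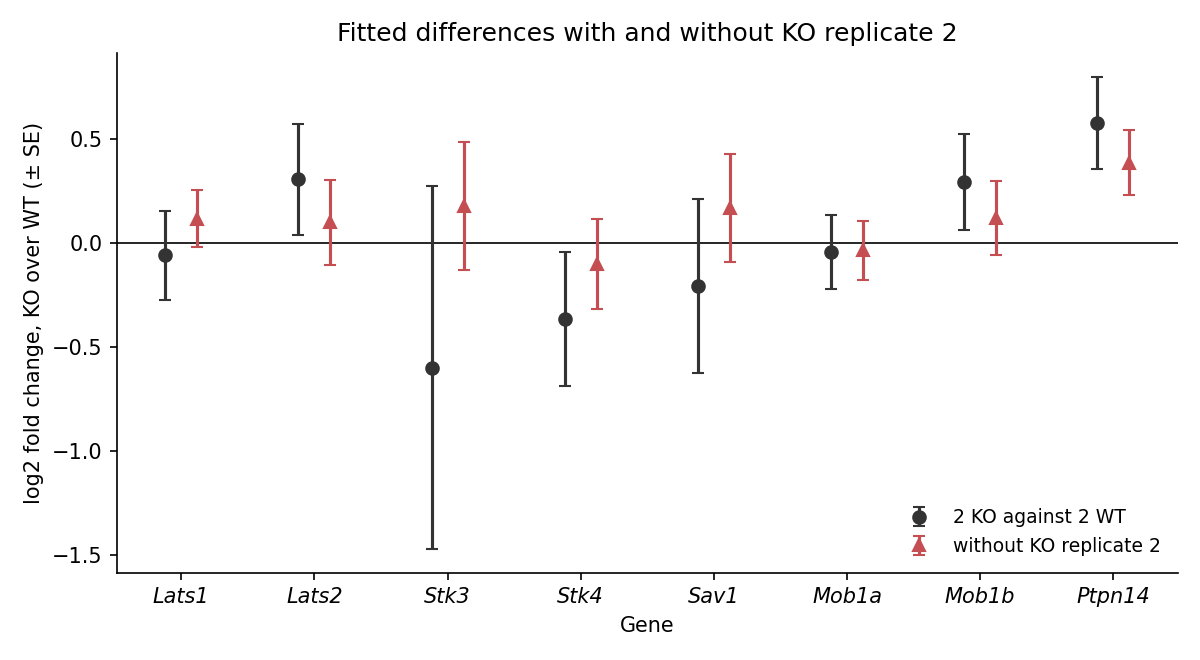
Fitted log2 fold change (edgeR, KO over WT) with its standard error, for all 4 libraries (circles) and without KO replicate 2 (triangles). Ptpn14 is at 0.58 and 0.39, and Lats1, Stk3 and Sav1 change sign when KO replicate 2 is left out.

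Per base of gene model, the set spanned a wide range of levels in WT. Levels in RPKM (TMM-scaled CPM divided by the summed exon length in kilobases, from GENCODE M21) were 93.8 ± 1.61 (SD, n = 2) for Mob1a and 73.6 ± 4.14 for Lats1. Mob1b followed at 20.05 ± 2.74 RPKM, Ptpn14 at 18.9 ± 0.90, Lats2 at 15.4 ± 1.15, Stk4 at 15.2 ± 0.40, Sav1 at 11.3 ± 1.46 and Stk3 at 6.22 ± 1.08. The WT libraries of the neighbours Mob1b and Ptpn14 overlapped, as did those of Lats2 and Stk4, and at every other step in this order the WT libraries did not overlap. Summed exon lengths include bases that not every isoform uses (15033 bases for Mob1b, whose longest transcript has 8967), so these levels can understate genes with many isoforms. In KO, Mob1a kept the top place with 91.2 and 90.8 RPKM and Stk3 the last with 7.01 and 1.19. Ptpn14 was above Mob1b in both KO libraries, at 24.6 and 31.7 RPKM against 21.7 and 27.3.

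Ratios of CPM within a library do not depend on the scaling between libraries. The ratio of Lats1 to Lats2 was 5.48 and 4.56 in the WT libraries, 5.06 in KO replicate 1 but 2.98 in KO replicate 2. The genotypes overlapped, with KO replicate 2 alone outside the range of the rest. The ratio of Stk4 to Stk3 was 2.72 and 2.05 in the WT libraries, 1.93 in KO replicate 1 but 7.61 in KO replicate 2. In this pair KO replicate 1 was just below both WT libraries and KO replicate 2 far above them. The ratio of Mob1a to Mob1b was 1.38 and 1.63 in WT and 1.34 and 1.06 in KO, and that of Ptpn14 to Lats1 was 0.438 and 0.507 in WT and 0.568 and 0.946 in KO. In these 2 pairs the genotypes did not overlap, and with 2 libraries against 2 an exact permutation test cannot go below 0.333 (two-sided). The summed level of all 8 genes was 1869 and 1802 CPM in the WT libraries against 1981 and 1971 CPM in the KO libraries, and that of the 4 kinases 784.5 and 759.1 CPM in the WT libraries against 821.0 and 663.0 CPM in the KO libraries.

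**Figure D4:**
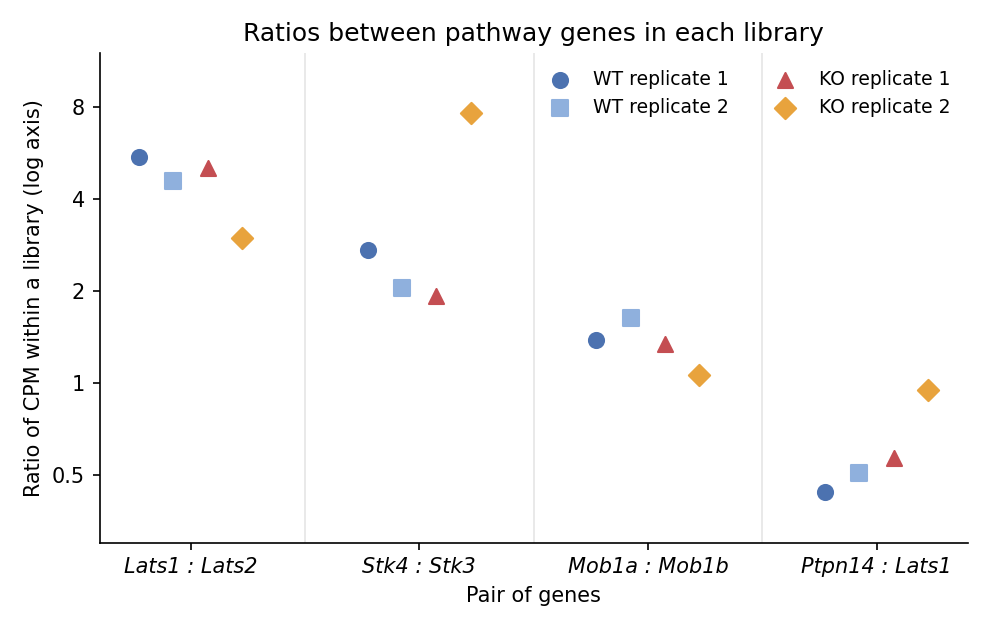
Ratio of CPM between gene pairs within each library, on a log axis. KO replicate 2 is the outermost library in each of the 4 pairs, with 7.61 for Stk4 to Stk3 against 1.93 to 2.72 in the other libraries.

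For the effectors that these kinases act on, no difference between genotypes exceeded its standard error. Yap1 measured 415.7 and 381.7 CPM in the WT libraries against 367.4 and 422.5 CPM in the KO libraries (log2 fold change -0.01 ± 0.19, or -0.12 ± 0.15 without KO replicate 2). Wwtr1, which encodes TAZ, measured 705.1 and 991.4 CPM in the WT libraries against 879.9 and 1047 CPM in the KO libraries (0.18 ± 0.24, or 0.06 ± 0.20 without it). For both genes the libraries of the 2 genotypes overlapped.

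Around the core, 68 of 79 other Hippo pathway entries had a row and 67 were tested, and none passed the test over all genes. Positive fold changes numbered 40 and negative ones 27, at a median log2 fold change of 0.12, beside 6563 positive and 8793 negative over all genes tested, at a median of -0.14. Both KO libraries were above both WT libraries in 17 genes and below them in 10, beside 13.2% and 19.2% of all genes tested. Those shares cover genes of every abundance, while 61 of the 67 genes had a mean of 5 CPM or more, so the background is unlike. Without KO replicate 2 the split was 38 to 29, with a median of 0.04. At a mean of 5 CPM or more the median was 0.15 in 61 genes, beside 0.05 over the 8841 genes of that abundance.

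The genes of that list with the smallest p-values lay furthest from WT in KO replicate 2. Btrc, which encodes the F-box protein that marks phosphorylated YAP for breakdown, was at 2.64 and 5.01 CPM in the WT libraries, at 7.54 CPM in KO replicate 1 but at 61.7 CPM in KO replicate 2 (unadjusted edgeR p of 0.0402, fitted on 4 libraries). Stk25, a STE20-family kinase, measured 42.2 and 26.4 CPM in the WT libraries against 48.97 and 244.1 CPM in the KO libraries (unadjusted p of 0.0476 in the same edgeR fit). Vgll3, a cofactor of TEAD factors, measured 43.9 and 30.2 CPM in the WT libraries against 51.0 and 101.9 CPM in the KO libraries. In all 3 genes both KO libraries were higher, and KO replicate 1 exceeded the higher WT library by far less than KO replicate 2 did. The log2 fold change went from 3.18 ± 1.16 to 0.98 ± 0.67 for Btrc when KO replicate 2 was left out, from 2.10 ± 0.80 to 0.52 ± 0.35 for Stk25 and from 1.04 ± 0.47 to 0.46 ± 0.32 for Vgll3.

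On the lower side, Strn measured 98.7 and 101.0 CPM in the WT libraries against 79.5 and 49.1 CPM in the KO libraries. It encodes striatin, a scaffold of the phosphatase complex that inactivates MST kinases. Map4k4, a kinase that acts on LATS in parallel to MST, measured 301.2 and 371.2 CPM in the WT libraries against 277.6 and 254.9 CPM in the KO libraries, and its relative Tnik measured 134.9 and 115.1 CPM in the WT libraries against 108.7 and 36.9 CPM in the KO libraries. Both KO libraries were below both WT libraries in these 3 genes. Log2 fold changes without KO replicate 2 were -0.33 ± 0.21 for Strn, -0.27 ± 0.18 for Map4k4 and -0.20 ± 0.21 for Tnik.

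By role, genes of cell contacts and apical complexes had 11 positive and 6 negative fold changes, with both KO libraries above WT in 2 of these 17 genes and below it in 1, beside 13.2% and 19.2% of all genes tested. Among 27 genes that bind or restrain the core kinases, such as striatin, LIM-domain and RASSF genes, 14 were positive and 13 negative. Both KO libraries lay above both WT libraries in 10 of these 27 genes and below them in 6, beside the same 13.2% and 19.2%. Here too the shares cover genes of every abundance, while 24 of these 27 genes had a mean of 5 CPM or more. Kinases that feed into LATS beside the MST kinases were split 5 to 4, and effectors and their TEAD and VGLL partners 6 to 2. Both KO libraries were above WT in 1 of these 9 kinases and below it in 2. Of the 8 effectors and partners, 2 were above and 0 below. No gene of these groups passed the test over all genes.

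**Figure D5:**
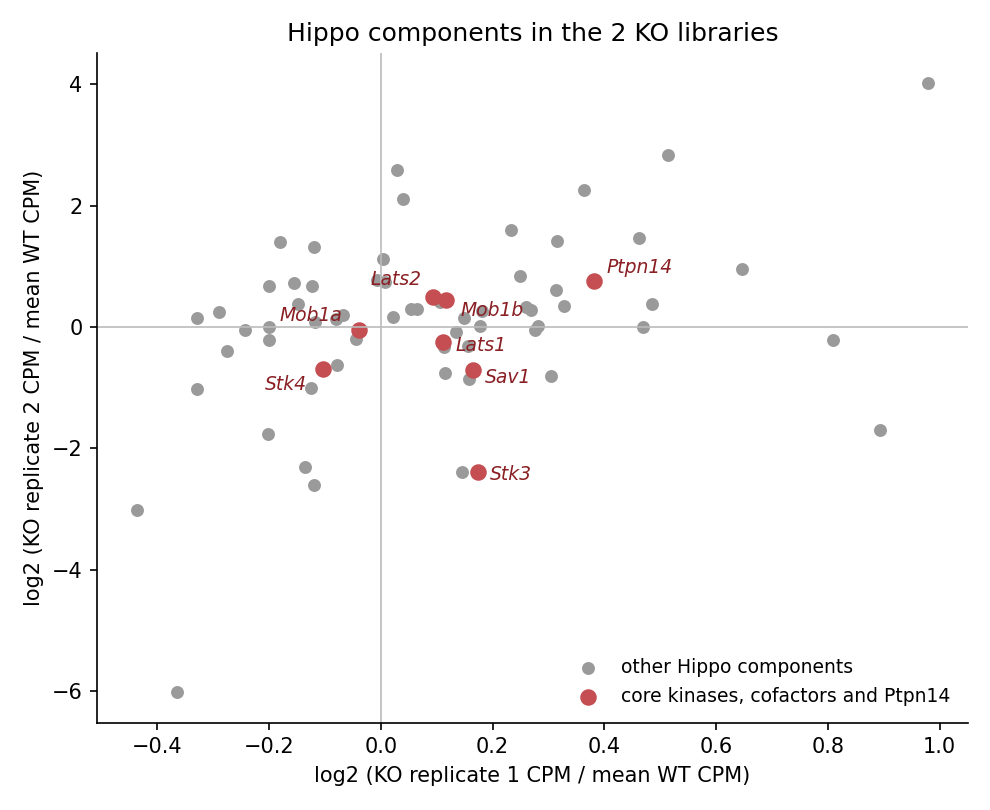
Each point is a gene, placed by the log2 ratio of KO replicate 1 (horizontal axis) and KO replicate 2 (vertical axis) to the same WT mean. Grey points are other Hippo components with a mean of 5 CPM or more, and the vertical axis, KO replicate 2, covers a wider range than the horizontal one.

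Known YAP and TAZ target genes outside the set were also counted, while nuclear YAP itself was not measured. Of 23 entries 21 had a row and 20 were tested, 14 positive and 6 negative, with a median log2 fold change of 0.16 and 0 passing the test. Over all genes tested 42.8% of fold changes were positive. In a separate fit limited to a mean CPM of 5 or more 49.3% were, at a median of -0.012. That share is not like for like with the 14 targets, which were counted in the unrestricted fit. Among genes of that abundance in the unrestricted fit, the median was 0.165 in 19 targets, beside 0.05 over all 8841. Both KO libraries were above WT in 7 of the 20 targets and below it in 2, beside 13.2% and 19.2% of all genes tested. Those shares cover genes of every abundance, while 19 of the 20 targets had a mean of 5 CPM or more, so the background is unlike. Without KO replicate 2 the split of fold changes was 13 to 7 with a median of 0.12. Amotl2, Ajuba and Fjx1 stand in both this list and the one before it. Amotl2, an angiomotin-family YAP inhibitor, measured 25.5 and 26.04 CPM in the WT libraries against 40.4 and 50.05 CPM in the KO libraries, so that both KO libraries were well above WT (log2 fold change 0.81 ± 0.39, or 0.65 ± 0.31 without KO replicate 2). Ccn1, a matricellular protein gene, measured 387.2 and 400.1 CPM in the WT libraries against 468.9 and 583.2 CPM in the KO libraries, and Tgfb2, a growth factor gene, measured 109.8 and 114.1 CPM in the WT libraries against 134.4 and 267.6 CPM in the KO libraries. The log2 fold change of Ccn1 was 0.42 ± 0.20, and 0.26 ± 0.14 without KO replicate 2, while that of Tgfb2 was 0.84 ± 0.38 and 0.27 ± 0.19. Lowest by p-value on the other side were Edn1 (-1.21 ± 0.85), Dock5 (-0.26 ± 0.23) and Tgfb1i1 (-0.26 ± 0.26). With KO replicate 2 left out these were -0.70 ± 0.48, -0.06 ± 0.15 and -0.04 ± 0.19.

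Genes with the most similar profile were sought by the Euclidean distance between log2(CPM + 1) values centred on their mean over the 4 libraries, among 8840 genes with a mean of 5 CPM or more. The nearest gene was Kcnma1 for Lats2 (distance 0.011), Phc2 for Ptpn14 (0.0441), Snx14 for Stk3 (0.0581), Mark3 for Stk4 (0.0481) and Lrp12 for Sav1 (0.046). Kmt5a was nearest to Mob1a (0.0268), Bhlhb9 to Mob1b (0.0392) and a gene without a symbol, ENSMUSG00000091986, to Lats1 (0.0267). With only 4 libraries such matches are frequent: from 1 gene for Stk3 to 67 genes for Mob1a lay within a distance of 0.1. Phc2 followed Ptpn14 with 78.8 and 82.4 CPM in the WT libraries against 107.9 and 139.9 CPM in the KO libraries, and Snx14 followed Stk3 with 17.1 and 23.2 CPM in the WT libraries, 23.2 CPM in KO replicate 1 but 3.43 CPM in KO replicate 2.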

How the data were processed

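The authors deposited raw counts of reads for each Ensembl gene in a separate file for each library. TopHat2 (2.02), HTSeq and the NCBIM37 (mm9) build stand in the submitters' processing notes, and the labels' protocols name PicoPure RNA extraction and NuGEN library preparation. Annotation release, strand setting and overlap rule: not given in the sources used here. Reads of overlapping or antisense genes therefore cannot be told apart. The 5 summary rows stayed out of library sizes. Reads outside features were 57.59% to 61.52% of the lines counted, and ambiguous reads 0.708% to 0.786%. Symbols, exon lengths, gene coordinates and UTRs came from GENCODE M21 (GRCm38, a later build than the counts), matched on identifiers for 30082 of 34615 rows, and promoters and the microRNA from RefSeq (GRCm38.p6).

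From the counts, edgeR 4.0.16 (R 4.3.3) was run with filterByExpr, TMM scaling and a quasi-likelihood test with genotype (KO, WT) as the only term, with Benjamini-Hochberg adjustment over all tested genes, and again without KO replicate 2. Standard errors are the fold change over the square root of the F statistic. Alternatives were DESeq2 1.42.0 size factors and its test, scaling by upper quartile or by total count, no filter, limma voom (3.58.1), a minimum mean CPM of 5, a replicate block and each library left out. Where a group is left with 1 library, it is assumed to vary like the rest. In counts simulated for the fit of 4 libraries (14102 genes), edgeR called 0% of genes changed 2-fold, 36% of those changed 4-fold and 56% of those changed 8-fold, with 6 false calls. In the simulation without KO replicate 2 (16157 genes) it called 22%, 74% and 86%, with 16 false calls. At 16-fold the share called in the simulation of 4 libraries was 48%, below that at 8-fold. Only a small random sample of genes with a mean CPM of 5 or more was changed, drawn once per simulation. Each share thus rests on few genes and is rough. Each gene had the same spread in every simulated library, so no single KO library stood apart as KO replicate 2 does here. These shares therefore need not hold for the data. The genes and lists were chosen with earlier results of these data known. Named genes were the set, Yap1 and Wwtr1, up to 3 genes per direction and list with the smallest p and a mean CPM of at least 5, and the nearest profile to each gene. PPxY motifs and protein identity, also planned, were not analysed here.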

Additional observations from a re-analysis of the deposited data

How the results depend on the processing

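The count of 0 genes called with all 4 libraries was the same under every scaling, filter and voom setting, while the DESeq2 Wald test called 4 genes. Leaving out 1 library gave 0 to 5724 called genes, 0 to 2 of the 8 genes of the set, 0 to 23 of the other Hippo components and 0 to 9 of the YAP/TAZ targets. The upper ends were reached without KO replicate 1, where KO replicate 2 is the only KO library and 34.9% of all genes were called. The genes of the set called there were Stk3 (log2 fold change -2.39, edgeR adjusted p of 0.00646) and Ptpn14 (0.745, edgeR adjusted p of 0.0120). Over the other settings the adjusted p of Ptpn14 was 0.888 to 1.

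With 1 library left out, log2 fold changes ran from -0.26 to 0.115 for Lats1, -2.392 to 0.176 for Stk3, -0.715 to 0.167 for Sav1, -0.115 to 0.08 for Yap1, -0.044 to 0.451 for Wwtr1, -2.558 to 0.205 for Snx14, -0.753 to 0.112 for Lrp12 and -0.3 to 0.13 for ENSMUSG00000091986. Lats1, Stk3 and Sav1 turned positive only without KO replicate 2. No gene of the set changed sign under the other settings. Ptpn14 had a log2 fold change of 0.43 with total count scaling and Lats2 one of 0.16, against 0.58 and 0.30 with TMM, and both KO libraries stayed above both WT libraries for each. With that scaling Mob1b had 0.15, and Lats1 and Mob1a had -0.17 each.

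Without KO replicate 2, 0 genes were called by the edgeR fit, 5 at a mean CPM of 5 or more and 10 by the DESeq2 Wald test. The replicate number as a block gave 0 called genes, with 79 at an unadjusted p under 0.05, and a log2 fold change of 0.57 for Ptpn14. Nothing in the labels says that numbers pair the libraries, and the deviations of same-numbered libraries had a correlation of 0.0231 across genes. For genes that differ in 1 library only, the cause was not tested.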
